A study of Homo sapiens with 8 samples.

Results

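Open chromatin was examined at the genes of the cytosolic ribosomal proteins, the proteins that together with ribosomal RNA build the large (RPL) and small (RPS) subunits of the ribosome. The members are the peaks whose deposited gene symbol is RPL or RPS followed by a number and at most 1 of the letters A, X and L, or RPLP0 to RPLP2 or RPSA, which leaves out pseudogenes and the RPS6K kinases. This gave 97 of the 62528 peaks of the deposited table, carried by 61 symbols, of which 37 are RPL and 24 are RPS. The symbols were matched without any measured value.

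The assay was ATAC-seq, which reads out where a transposase can reach the DNA, and it was run on JJN3 and KMS11, established lines of multiple myeloma, a cancer of plasma cells. Each line was kept for 48 h with 200 nM pomalidomide plus 40 nM GNE-781 (the combination), with 40 nM GNE-781, with 200 nM pomalidomide, or with a matching amount of the solvent DMSO, and each line and treatment has 1 library. Pomalidomide directs cereblon, a substrate receptor of a ubiquitin ligase, to the transcription factors IKZF1 and IKZF3, and GNE-781 is an inhibitor of EP300 and CREBBP, acetyltransferases that act on histones, which binds their bromodomain. Cells overexpressing BATF, and their eGFP counterparts, are part of the stated design but were not analysed here. Counts in peaks ran from 1366628 in the JJN3 DMSO library, the shallowest, to 5435673 in the KMS11 combination library. Of 8 plasma cell marker genes, 7 had a promoter peak, TNFRSF17 being the exception, while 1 of 4 B cell genes, 0 of 4 T and NK cell genes, 0 of 4 myeloid genes, 1 of 3 erythroid genes and 2 of 3 stromal genes had one.

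Ribosomal protein genes are transcribed at high and coordinated rates in growing cells, because each subunit needs its proteins in equal number. Their transcripts typically start at a C within a run of pyrimidines, the 5′ terminal oligopyrimidine or TOP tract, through which the mTOR pathway sets their translation. Plasma cells make large amounts of secreted antibody and depend on ribosomes for it, and some ribosomal proteins, RPL5 and RPL11 above all, bind MDM2 and stabilise p53 when ribosome assembly is disturbed.

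The starts of the genes that the results below turn on are shown first, because they display the TOP tract that marks most members. RefSeq promoter sequences (GRCh38.p14) were at hand for 79 starts of 64 genes that fit the naming rule. Each line runs from 60 bases before the start to 20 bases from it, 5′ to 3′ on the gene's own strand, and capitals mark the unbroken pyrimidine run from the first transcribed base where that base is C and at least 4 more pyrimidines follow.
RPS15, chr19:1438336-1438415, plus strand: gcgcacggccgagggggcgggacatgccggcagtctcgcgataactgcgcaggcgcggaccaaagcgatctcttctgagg
RPL36, chr19:5690235-5690314, plus strand: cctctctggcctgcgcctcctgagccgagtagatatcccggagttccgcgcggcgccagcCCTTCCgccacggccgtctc
RPL27, chr17:42998359-42998438, plus strand: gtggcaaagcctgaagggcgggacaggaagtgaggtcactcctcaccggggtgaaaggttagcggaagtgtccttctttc
RPL14, chr3:40457279-40457358, plus strand: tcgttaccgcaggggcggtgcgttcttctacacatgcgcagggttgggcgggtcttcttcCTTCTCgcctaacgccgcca
RPS23, chr5:82278335-82278414, minus strand: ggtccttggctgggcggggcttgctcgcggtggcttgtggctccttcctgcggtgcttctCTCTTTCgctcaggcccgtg
RPL11, chr1:23691746-23691825, plus strand: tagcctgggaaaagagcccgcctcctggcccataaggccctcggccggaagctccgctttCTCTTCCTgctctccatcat
RPS14, chr5:150449720-150449799, minus strand: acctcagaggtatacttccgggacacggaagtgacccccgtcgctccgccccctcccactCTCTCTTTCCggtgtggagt
RPS19, chr19:41860195-41860274, plus strand: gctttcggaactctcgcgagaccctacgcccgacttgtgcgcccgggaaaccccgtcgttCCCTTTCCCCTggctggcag
RPL26, chr17:8383174-8383253, minus strand: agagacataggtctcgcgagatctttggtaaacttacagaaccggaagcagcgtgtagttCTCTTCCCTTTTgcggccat

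Such a start was found at 46 of the 79 ribosomal protein starts (58.2%), against 4.07% of all 35116 RefSeq starts and 5.13% of the 14850 starts that lie in a tested peak. Where present, the run had a median length of 8 bases, with a range of 5 to 19. The starts of RPS15 and RPL27, shown above, have none at the RefSeq position. Within the 300 bases around the start, the core of the ETS factor motif, CCGGAAG on either strand, occurred at 34.2% of the ribosomal protein starts, against 19.5% of the starts in a tested peak. The palindrome shown as the first run of capitals in the RPL26 promoter below occurred at 5 of the 79 starts. This is 6.33%, against 0.963% of the starts in a tested peak. The TATA box TATAAA on either strand occurred at 7.59%, against 4.58% of the starts in a tested peak but 11.5% of all starts. Of the other motifs searched, ATGGCGG occurred at 19.0%, against 10.5% of the starts in a tested peak. The GC box GGGCGG was less frequent, at 55.7% against 72.6%, and CCAAT was similar, at 34.2% against 35.6%. None of these motifs contains another. A match describes the letters and shows no binding. The median GC content of the 300 bases was 59.3% at ribosomal protein starts and 66.3% at the starts in a tested peak.

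The 250 bases before the RPL26 start are printed because this promoter is the only member shown here that was called in a comparison and because it holds both of the first 2 motifs, in capitals. RPL26 lies in the large subunit near the exit of the nascent chain and binds the mRNA of p53.
RPL26, chr17:8383194-8383443, minus strand: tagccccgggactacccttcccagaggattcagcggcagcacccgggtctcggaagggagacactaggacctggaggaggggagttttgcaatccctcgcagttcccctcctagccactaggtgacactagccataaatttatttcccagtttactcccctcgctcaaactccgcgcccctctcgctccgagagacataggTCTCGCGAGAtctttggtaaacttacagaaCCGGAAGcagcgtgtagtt

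A peak within 1000 bp of the annotated start of its gene was called a promoter peak. There were 59 of these among the members, at 56 of the 61 symbols, and 58 of them overlapped the annotated start. The other 38 members, here called distal, comprised 18 peaks in the body of the gene and 20 intergenic ones that were assigned to the nearest gene. Most symbols (37) had 1 peak and 24 had more, with 6 at RPL39L, a paralogue of RPL39 known from the testis. All 97 members passed the filter on low counts, a mean of at least 2 CPM (counts scaled to a common library size) over the 8 libraries.

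The rule does not reach every ribosomal protein gene. Of 79 listed genes of the cytosolic ribosome, 20 had no member peak, among them FAU, whose name the rule does not take in. At 15 of these 20 the nearest peak within 1000 bp of the RefSeq start carried the symbol of another gene. The peak at the RPL18 start, for example, is listed under AC022154.7, that at RPLP2 under PIDD1 and that at RPS28 under NDUFA7. Conversely, 4 promoter members, at RPL10, RPL27A, RPL6 and RPS29, lay at no RefSeq start of their gene, and 3 distal members, at RPL22, RPL4 and RPL39L, lay at one. Medians and calls were therefore also computed for the 75 peaks within 1000 bp of a RefSeq start of these genes, of which 58 are members.

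Ribosomal protein promoters were open in all 8 libraries, at levels somewhat above the middle of all promoters. Per kb of peak, the promoter members had a median of 39.8 scaled CPM (quartiles 29.4 and 48.9), against 32.9 for all 15906 tested promoter peaks, and 37 of 59 stood above that value. Their widths were alike, with a median of 753 bp for the promoter members and 731 bp for all promoter peaks. The highest levels were at RPL7 (80.7 CPM per kb) and at the RPL10 peak (75), which lies at no RefSeq start of its gene. The lowest were at RPL6 (17.3), RPL12 (21.2), RPL23 (22.1) and RPS15 (22.4). Large subunit promoters had a median level of 35.3 CPM per kb and small subunit promoters one of 40.9. Distal members had a median of 24.9 CPM per kb, against 21.1 for all distal peaks.

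**Figure D1:**
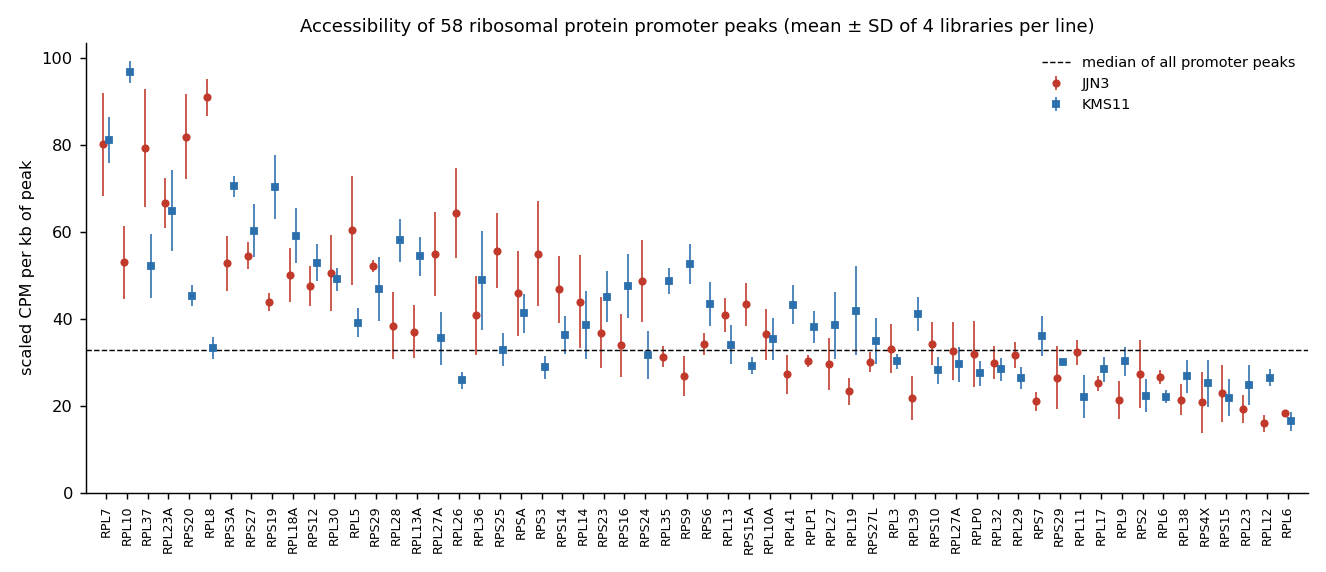
Level of 58 of the 59 ribosomal protein promoter peaks in scaled CPM per kb of peak, ordered by the mean over all libraries, with JJN3 (circles) and KMS11 (squares) as mean ± SD over the 4 libraries of each line. The dashed line is the median of all tested promoter peaks, 32.9, and JJN3 is higher at RPL8 and RPL26 and lower at RPL10.

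The summed signal of the 59 promoters was similar in all libraries. Since each library pools many cells, a peak that is open in fewer cells and one that is less open in each cell cannot be told apart. In JJN3 it was 1970 scaled CPM under the combination, 1990 under GNE-781, 2000 under pomalidomide and 1870 under DMSO. In KMS11 it was 2120 under the combination, 2050 under GNE-781, 1960 under pomalidomide and 1990 under DMSO. As a share of all counts in promoter peaks this was 0.413% under the combination, 0.402% under GNE-781, 0.3735% under pomalidomide and 0.383% under DMSO in JJN3. The same share in KMS11 was 0.434%, 0.418%, 0.412% and 0.408% for the combination, GNE-781, pomalidomide and DMSO. The sum of the 38 distal members in JJN3 was 554 CPM under the combination, 579 under GNE-781, 637 under pomalidomide and 631 under DMSO. In KMS11 it was 445 under the combination, 473 under GNE-781, 487 under pomalidomide and 483 under DMSO, so that in both lines it was lowest under the combination.

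With the combination, no ribosomal protein peak passed the test. The combination against DMSO asks what both agents together do to these peaks. It was tested with edgeR's quasi-likelihood test over all 8 libraries with the line as a block, and a peak counts as called at a Benjamini-Hochberg adjusted p under 0.05 over all 62234 tested peaks. Of the 97 members 0 were called, against 4.79% of all peaks and 1.69% of all promoter peaks, and the lowest adjusted p was 0.0631. Before adjustment, 6 members above 0 and 3 below had a p under 0.05, which is 9.28% of the members, against 17.4% of all peaks. Members hold more promoter peaks than all peaks do, so the classes were also set apart. Among promoter members the share was 11.9%, against 10.1% of all promoter peaks, and among distal members 5.26%, against 19.9% of all distal peaks. DESeq2 also called 0. The promoter members had a median log2 change of 0.14, with 39 of 59 above 0, while all promoter peaks had a median of 0.00 with 50% above 0. The distal members had a median of -0.18, with 27 of 38 below 0, against 0.00 for all distal peaks. Of the 59 promoter members 27 were above 0 in both lines and 9 below 0 in both, against 29.2% and 27.9% of all promoter peaks.

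GNE-781 alone also gave no call. Of the 97 members 0 were called by edgeR, against 0.0209% of all peaks and 0.00629% of all promoter peaks, and the lowest adjusted p was 0.687. Before adjustment, a p under 0.05 was found at 3 members above 0 and 1 below (4.12%, against 6.58% of all peaks), and DESeq2 called 0. By class this was 6.78% of promoter members, against 4.2% of all promoter peaks, and 0.0% of distal members, against 7.4% of all distal peaks. The median log2 change of the promoter members was 0.12, with 40 of 59 above 0, while that of all promoter peaks was 0.02 with 53% above 0. Within the lines, each with 1 library per treatment and hence no replicate check, the median was 0.16 in JJN3 and 0.10 in KMS11, against 0.02 in JJN3 and 0.03 in KMS11 for all promoter peaks. Both lines were above 0 at 26 of the 59 promoter members and below 0 at 8, against 27.7% and 23.0% of all promoter peaks.

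Under pomalidomide alone no member was called either. Of the 97 members 0 were called, against 1.25% of all peaks and 0.49% of all promoter peaks, with a lowest adjusted p of 0.105. An unadjusted p under 0.05 was found at 3 members above 0 and 2 below (5.15%, against 11.2% of all peaks), and DESeq2 called 0. By class this was 3.39% of promoter members, against 6.19% of all promoter peaks, and 7.89% of distal members, against 12.9% of all distal peaks. The median log2 change was 0.04 for the promoter members and 0.04 for all promoter peaks. Within the lines it was 0.08 in JJN3 and 0.002 in KMS11, against 0.11 in JJN3 and -0.03 in KMS11 for all promoter peaks. The small positive median depends on the scaling: it was -0.001 with factors taken over promoter peaks and -0.015 with cyclic loess offsets. Without the JJN3 pomalidomide library it was 0.057, against -0.035 for all promoter peaks.

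**Figure D2:**
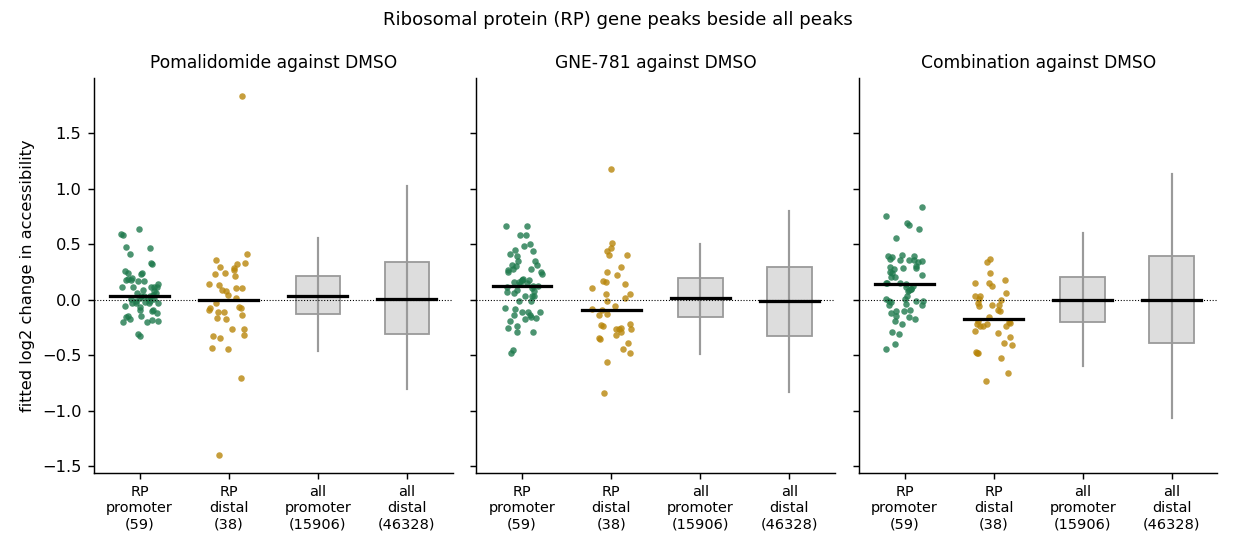
Fitted log2 change in accessibility for the 59 promoter and 38 distal ribosomal protein (RP) peaks, one point each, beside all tested promoter and distal peaks, drawn as quartile boxes with lines from the 5th to the 95th percentile. Black bars are medians: under GNE-781 and the combination the promoter members have medians of 0.12 and 0.14 and the distal members -0.09 and -0.18, while those of all peaks lie near 0.

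Setting all 4 libraries with GNE-781 against the 4 without, with line and pomalidomide in the model, uses more libraries for 1 contrast. Of the 97 members 0 were called by edgeR, against 0.961% of all peaks and 0.358% of all promoter peaks, with a lowest adjusted p of 0.206, and DESeq2 called 0. An unadjusted p under 0.05 was found at 7 members above 0, all of them promoter peaks (among them RPL14, RPL27, RPL10A, RPS16, RPLP0 and RPS15), and at 3 below, all of them distal (1 of RPL22 and 2 of RPL39L). This is 10.3% of the members, against 12.4% of all peaks, and among promoter members alone 11.9%, against 7.27% of all promoter peaks. The median of the promoter members was 0.10, with 40 of 59 above 0, against -0.01 and 47.4% for all promoter peaks. All 59 promoter members had a 95% interval within 2-fold of no change in either direction. This comparison shares its libraries with those of the single treatments and is no separate evidence.

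For the 4 libraries with pomalidomide against the 4 without, 0 of the 97 members were called, against 6.21% of all peaks and 2.67% of all promoter peaks, with a lowest adjusted p of 0.0709 at the distal RPL10 peak. Without adjustment, 4 members above 0 and 3 below had a p under 0.05 (7.22%, against 18.4% of all peaks), and DESeq2 called 0. By class this was 3.39% of promoter members, against 11.1% of all promoter peaks, and 13.2% of distal members, against 20.9% of all distal peaks. The distal RPL10 peak passed, with an adjusted p of 0.0402, once the JJN3 pomalidomide library was left out and, with 0.0422, under cyclic loess offsets. Whether the combination differs from the added changes of both single agents was tested too. Here edgeR called 0 members and 0.0% of all peaks, and DESeq2 called 0 members. At an unadjusted p under 0.05, 1 member was higher and 1 lower (2.06%, against 2.64% of all peaks). A model with a drug effect per line, added after the data had been seen, gave 0 members whose pomalidomide effect differed between JJN3 and KMS11, against 0.0675% of all peaks, and 0 whose GNE-781 effect differed, against 0.00964%, by edgeR. At an unadjusted p under 0.05 the pomalidomide effect was higher in JJN3 at 5 members and lower at 3 (8.25%, against 7.99% of all peaks). The GNE-781 effect was higher in JJN3 at 1 and lower at 3 (4.12%, against 7.14% of all peaks).

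The medians of the large and the small subunit lay close together. Under the combination the 35 RPL promoter peaks had a median log2 change of 0.15, with 25 above 0, and the 24 RPS promoter peaks one of 0.11, with 14 above 0. Under GNE-781 the medians were 0.14 for RPL and 0.12 for RPS. The median was not higher with a TOP start, as far as promoter sequences were at hand. They were for 43 promoter members, at a start in or within 1000 bp of the peak. Among these the combination median was 0.12 for the 29 with a TOP start and 0.18 for the 14 without.

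**Figure D3:**
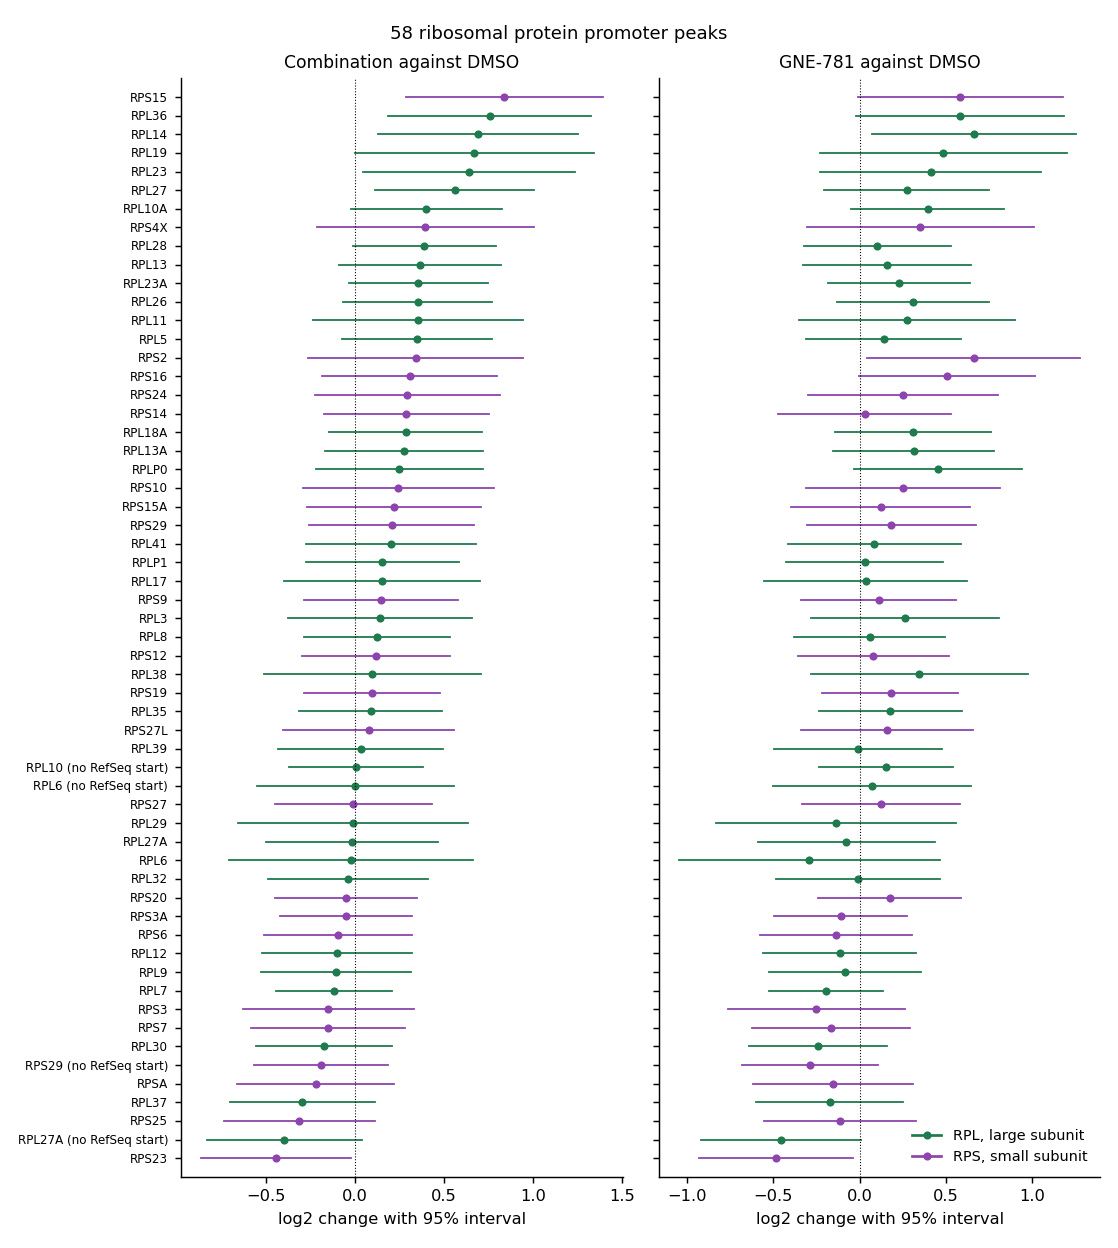
Fitted log2 change of 58 of the 59 promoter peaks with its 95% interval, for the combination (left) and GNE-781 (right) against DMSO, ordered by the change under the combination. RPS15 stands at the top with 0.84 and RPS23 at the bottom with -0.45, and 4 peaks are marked as holding no RefSeq start of their gene.

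The member with the lowest p under the combination was the promoter of RPS15, a protein of the head of the small subunit that is recurrently mutated in chronic lymphocytic leukaemia (19:1438110-1438953). In JJN3 it had 25.2 scaled CPM under the combination, 21.2 under GNE-781, 19.0 under pomalidomide and 12 under DMSO. In KMS11 it had 22.1 under the combination, 18.4 under GNE-781, 19.9 under pomalidomide and 13.5 under DMSO. All 6 treated libraries were above both DMSO libraries. The peak was picked for its low p and the treatments share these DMSO libraries, so this ordering is no separate evidence. The same holds for the order of libraries at the other members named below for a low p. The log2 change was 0.84 under the combination (95% interval 0.29 to 1.39, adjusted p = 0.0631), 0.58 under GNE-781 (adjusted p = 0.766) and 0.58 under pomalidomide (adjusted p = 0.418).

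The promoter of RPL36 (19:5690097-5690498), a protein of the large subunit, came next. It had 20.8 scaled CPM under the combination, 14.1 under GNE-781, 18 under pomalidomide and 12.8 (17 reads) under DMSO in JJN3. In KMS11 it had 22.1 under the combination, 22.6 under GNE-781, 21.0 under pomalidomide and 12.9 under DMSO. Again the treated libraries were all above both DMSO libraries. The log2 change under the combination was 0.76 (0.19 to 1.33, adjusted p = 0.116) and under pomalidomide 0.63 (0.06 to 1.204, adjusted p = 0.365).

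RPL27, whose loss of function is a cause of Diamond-Blackfan anaemia, a failure of red cell production, had a promoter peak at 17:42997871-42998757. The JJN3 libraries had 30.5 scaled CPM under the combination, 29.5 under GNE-781, 26.3 under pomalidomide and 18.8 under DMSO, and the KMS11 libraries had 44.2, 32.7, 28.9 and 30.8 for the combination, GNE-781, pomalidomide and DMSO. Each combination and each GNE-781 library was above the DMSO library of its line, while the KMS11 pomalidomide library was below it. The log2 change under the combination was 0.56 (0.12 to 1.00, adjusted p = 0.145).

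RPL14 (3:40457189-40457622), also of the large subunit, had the lowest p among the members above 0 under GNE-781. In JJN3 its promoter had 22.8 scaled CPM under the combination, 22.4 under GNE-781, 18.3 under pomalidomide and 12.8 (17 reads) under DMSO. In KMS11 it had 19.9 under the combination, 19.4 under GNE-781, 14.8 under pomalidomide and 12.9 under DMSO. The 4 libraries with GNE-781 were all above the 4 without. The log2 change was 0.66 under GNE-781 (0.07 to 1.25, adjusted p = 0.687), 0.69 under the combination (0.13 to 1.25, adjusted p = 0.156) and 0.49 over all GNE-781 libraries (0.13 to 0.86, adjusted p = 0.206).

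Also named under GNE-781 was the promoter of RPS2 (16:1964552-1965207), of the small subunit. It had 20.8 scaled CPM under the combination, 21.8 under GNE-781, 18.7 under pomalidomide and 10.5 under DMSO in JJN3. In KMS11 it had 12.6 under the combination, 18.1 under GNE-781, 15 under pomalidomide and 12.9 under DMSO. The GNE-781 library was the highest of each line, and the KMS11 combination library was just below the DMSO one. The log2 change was 0.66 under GNE-781 (0.04 to 1.28, adjusted p = 0.719) and 0.34 under the combination (-0.26 to 0.95).

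On the other side of 0 stood RPS23 (5:82277990-82278799), which helps to form the decoding centre. Its promoter had 24.7 scaled CPM under the combination, 25.6 under GNE-781, 30.0 under pomalidomide and 39.1 under DMSO in JJN3. In KMS11 it had 34.7 under the combination, 32.7 under GNE-781, 35.2 under pomalidomide and 43.5 under DMSO. Each treated library was below the DMSO library of its line. The log2 change was -0.45 under the combination (-0.87 to -0.02, adjusted p = 0.253), -0.48 under GNE-781 (-0.93 to -0.04, adjusted p = 0.707) and -0.33 under pomalidomide (adjusted p = 0.616). The second RPL27A promoter peak (11:8688556-8689260), 1 of the 4 at no RefSeq start, had a log2 change of -0.46 under GNE-781 (-0.92 to 0.01, adjusted p = 0.766).

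**Figure D4:**
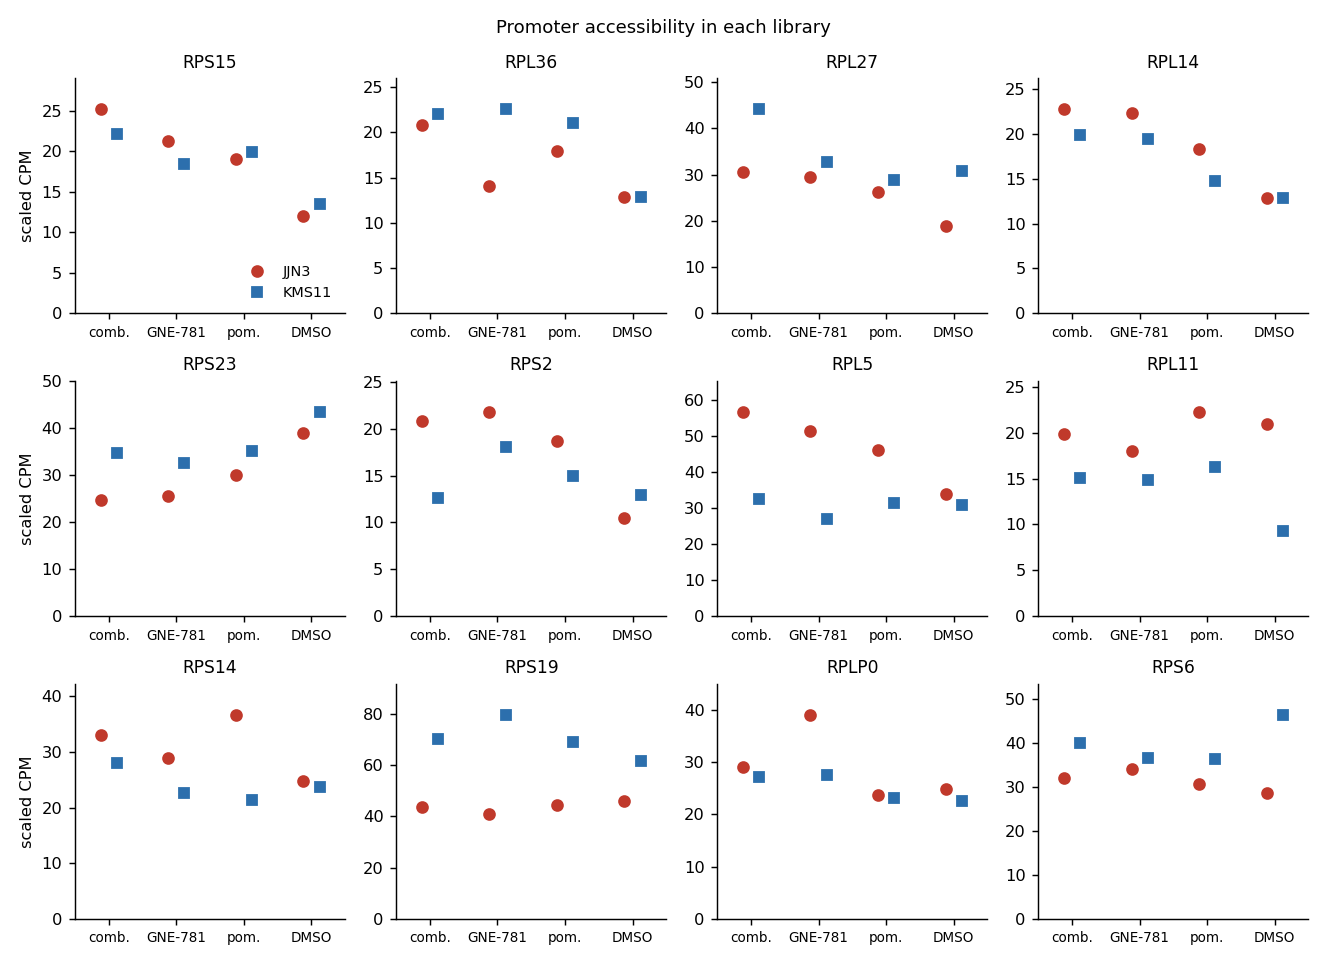
Scaled CPM in each of the 8 libraries at 12 promoter peaks, with treatments along the axis (combination, GNE-781, pomalidomide, DMSO) and JJN3 as circles and KMS11 as squares, 1 library each. RPS15 and RPL36 are lowest in both DMSO libraries, RPS23 is highest there, and RPL14 is higher in the 4 libraries with GNE-781 than in the others. These peaks were picked for a low p in the same libraries.

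RPL5 and RPL11, which bind MDM2 together with 5S rRNA, had no call under any treatment, and RPL5 lies on the short arm of chromosome 1, parts of which are often lost in myeloma. The RPL5 promoter (1:92831660-92832436) had 56.7, 51.3, 46.0 and 33.8 scaled CPM in JJN3 for the combination, GNE-781, pomalidomide and DMSO, and 32.6, 26.8, 31.5 and 30.8 in KMS11. The JJN3 libraries were above all KMS11 libraries, by 0.62 on the log2 scale (0.32 to 0.92), which does not reach the 2-fold that a line call needs. RPL11 (1:23691550-23692178) had 19.9, 18, 22.3 and 21.0 CPM in JJN3 and 15.1, 14.9, 16.3 and 9.32 in KMS11 in that order of treatments, with a log2 change of 0.35 under the combination (-0.24 to 0.94, adjusted p = 0.598).

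Among the members known from leukaemia, RPL10, whose product joins the large subunit late in its assembly and is mutated in T cell leukaemia, had a promoter peak at X:154389645-154390467. It had 39.8, 53.9, 39.0 and 42.1 scaled CPM in JJN3 and 82.3, 80.2, 77.4 and 78.9 in KMS11 for the combination, GNE-781, pomalidomide and DMSO, so that each JJN3 library was below each KMS11 library (log2 difference -0.89, -1.16 to -0.61). Its combination change was 0.01 (-0.37 to 0.38). This peak lies at no RefSeq start of RPL10. The peak that does (X:154397460-154398917) is listed under another symbol. That peak had a log2 change of -0.14 under the combination and a line difference of -0.92. A distal RPL10 peak 1217 bp from the annotated start (X:154388100-154388738) had 20.8, 29.5, 30.0 and 38.3 CPM in JJN3 and 36.9, 46.9, 32.4 and 47.1 in KMS11, with a log2 change of -0.53 under the combination (-0.96 to -0.10, adjusted p = 0.155). The RPL22 peak at its RefSeq start (1:6199177-6200039), a gene also deleted in T cell leukaemia, had a combination change of 0.03 (-0.38 to 0.45).

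RPS14, the gene whose lost copy accounts for the anaemia of the 5q deletion syndrome, had a promoter peak at 5:150449501-150450159 with a combination change of 0.29 (-0.18 to 0.75, adjusted p = 0.578). It had 33, 28.9, 36.7 and 24.8 scaled CPM in JJN3 and 28.0, 22.6, 21.4 and 23.8 in KMS11 for the combination, GNE-781, pomalidomide and DMSO. An intergenic peak 13309 bp from the RPS14 start (5:150436177-150436438) had the lowest p of all members under pomalidomide. It had 8.73, 7.05, 4.0 and 13.5 CPM in JJN3 and 4.63, 5.50, 2.79 and 5.95 in KMS11, a log2 change of -1.40 under pomalidomide (-2.28 to -0.51, adjusted p = 0.105). RPS19, the gene most often mutated in Diamond-Blackfan anaemia, had 43.6, 41.0, 44.3 and 45.8 CPM in JJN3 and 70.2, 79.6, 69.0 and 61.6 in KMS11 at its promoter (19:41859444-41860439), and its combination change was 0.10 (-0.29 to 0.48).

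The other promoters followed by rule all had combination intervals that include 0. RPLP0, the base of the stalk that recruits elongation factors, had 29.1, 39.1, 23.7 and 24.8 scaled CPM in JJN3 and 27.1, 27.5, 23.2 and 22.5 in KMS11 for the combination, GNE-781, pomalidomide and DMSO. It was highest under GNE-781 in both lines, and its combination change was 0.25 (-0.22 to 0.72). RPL3, which lines the peptidyl transferase centre, had 19.4, 26.9, 23.7 and 18.8 CPM in JJN3 and 21.7, 20.1, 20.2 and 18.9 in KMS11 under these treatments, with a change of 0.14 (-0.38 to 0.66). RPSA, also known as the laminin receptor, had 26.7, 37.2, 44.3 and 32.3 in JJN3 and 31.7, 27.5, 31.1 and 36.0 in KMS11, with a change of -0.22 (-0.66 to 0.22). Both combination libraries were below the DMSO library of their line at RPSA and above it at RPL3.

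RPS6, the substrate of S6 kinase, had 32.0, 34.0, 30.7 and 28.6 scaled CPM in JJN3 and 39.9, 36.5, 36.2 and 46.3 in KMS11 for the combination, GNE-781, pomalidomide and DMSO. DMSO was the lowest library in JJN3 and the highest in KMS11, and the combination change was -0.10 (-0.51 to 0.32). RPS4X, encoded on the X chromosome, had 11.2, 21.2, 13 and 11.3 CPM in JJN3 and 22.1, 13.9, 17.8 and 14.8 in KMS11, with a change of 0.40 (-0.22 to 1.00). RPS20, of the head of the small subunit, had 53.3, 66.0, 51.7 and 53.4 in JJN3 and 29.9, 33, 29.4 and 31.8 in KMS11, with a change of -0.05 (-0.45 to 0.35). The JJN3 libraries of RPS20 were all above those of KMS11. Under the combination 52 of the 59 promoter members had an interval within 2-fold of no change in either direction, against 74.5% of all promoter peaks. For the distal members, whose counts are lower, this held for 23 of 38.

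Further distal members were named for a low unadjusted p. The RPL39L peak at its RefSeq start (3:187139193-187139960) had 51.9, 64.1, 73.3 and 75.2 scaled CPM in JJN3 and 49.7, 49.5, 50.2 and 62.4 in KMS11 for the combination, GNE-781, pomalidomide and DMSO. DMSO was highest in both lines, and the log2 change under the combination was -0.41 (-0.78 to -0.04, adjusted p = 0.218). Another RPL39L peak (3:187101182-187102314) had 50.4, 41.7, 53.3 and 50.4 in JJN3 and 45.1, 30.1, 53.8 and 42.2 in KMS11, with -0.39 under GNE-781 (-0.81 to 0.04, adjusted p = 0.797). A peak in RPL22 (1:6205784-6206494) had 28.1, 25.6, 53.7 and 44.3 in JJN3 and 21.4, 25.5, 24.2 and 19.7 in KMS11, with -0.36 over all GNE-781 libraries (-0.69 to -0.04, adjusted p = 0.334). In JJN3 its libraries with GNE-781 were both below those without, and in KMS11 the groups overlapped. A peak in RPS9 (19:54210741-54211225) had -0.43 over all pomalidomide libraries (-0.82 to -0.04, adjusted p = 0.21). The intergenic RPL5 peak (1:92820175-92820357) had 1.83 under pomalidomide (0.15 to 3.52, adjusted p = 0.384), on few counts. The combination departed from the sum of both agents by 0.90 at a distal RPL3 peak (-0.15 to 1.96) and by -0.62 at the RPL4 peak of its RefSeq start (-1.34 to 0.10), each with an adjusted p of 1.0. These were not the largest departures, which ran from -2.669 to 1.395 over the distal members. The lowest p for a departure was at the intergenic RPS14 peak above 0 and at the intergenic RPL5 peak below 0, both given for pomalidomide.

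More members were called between the lines than between treatments. With 4 libraries per line and treatment as a block, a peak counts as called at an adjusted p under 0.05 and a difference of at least 2-fold. In JJN3 against KMS11, 11 of the 97 members were called (11.3%), 9 higher and 2 lower in JJN3, against 31.9% of all peaks. Among promoter members 2 of 59 were called (3.39%), against 21.7% of all promoter peaks. The median log2 difference of the promoter members was -0.02, with 29 of 59 above 0. The lines did not overlap at 42 of the 97 members (43.3%), against 42.3% of all peaks. Among promoter members the share was lower, 40.7% against 50.2% of all promoter peaks.

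Both called promoters were higher in JJN3. RPL8, a protein beside the peptidyl transferase centre, had 63.0, 59, 58.3 and 56.4 scaled CPM in JJN3, against 23.1, 22.6, 19.3 and 21.7 in KMS11, for the combination, GNE-781, pomalidomide and DMSO. Its difference was 1.45 ± 0.15 (SE) on the log2 scale, or 2.74-fold (adjusted p = 3.34e-13). RPL26 (17:8383077-8383957), whose sequence is given above, averaged 56.7 ± 9.17 CPM in JJN3 and 22.8 ± 1.76 in KMS11 (SD, n = 4 libraries of different treatments each), a difference of 1.31 ± 0.15 or 2.48-fold (adjusted p = 1.42e-11). The 4 JJN3 libraries lay above the 4 KMS11 libraries at both.

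The other 9 called members were distal. Higher in JJN3 were peaks assigned to RPL13, in the gene, with 37.5 ± 5.51 scaled CPM in JJN3 and 7.92 ± 2.29 in KMS11 (4.92-fold, adjusted p = 1.52e-15), and to RPS16, with 21.2 ± 3.69 in JJN3 and 4.35 ± 0.93 in KMS11 (4.91-fold, adjusted p = 2.38e-12). The RPL37 peak, 11581 bp from the start, had 13.1 ± 2.83 in JJN3 and 1.64 ± 0.44 in KMS11 (7.97-fold, adjusted p = 1.09e-11). The peaks assigned to RPS9, RPS12, RPL39L and RPL5 differed by 3.83-fold, 2.83-fold, 2.66-fold and 8.48-fold. The last had only 0.178 to 1.07 CPM in KMS11. The RPL37 and RPL5 peaks averaged under 2 CPM in KMS11 and passed the filter on low counts only through JJN3, where they are high, so these 2 had to differ between the lines to be tested, and their calls are a description. Lower in JJN3 were the peaks of RPL19, with 4.32 ± 1.57 in JJN3 and 10.1 ± 0.42 in KMS11 (2.25-fold lower, adjusted p = 0.000676), and RPL37A, with 4.12 ± 2.39 in JJN3 and 10.8 ± 3.75 in KMS11 (2.83-fold lower, adjusted p = 4.91e-05). The RPS12 call ended without the JJN3 combination library (log2 difference 0.93, adjusted p = 0.0887) and without that of KMS11 (0.94, adjusted p = 0.0699), and the RPL39L call without the JJN3 pomalidomide library (0.89, adjusted p = 0.101) and without that of KMS11 (0.88, adjusted p = 0.0757).

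The line difference of a ribosomal protein promoter went with that of the surrounding chromosome. For each member the median line difference of the 24 to 137 other peaks whose start lies within 1 Mb was taken. Over the 59 promoter members Spearman's rho between the peak and this neighbourhood was 0.88 and Pearson's r 0.88, and 48 of 59 had the sign of their neighbourhood. Over all 15906 promoter peaks rho was 0.64 and r 0.56, with 77.7% sharing the sign. These values describe peaks of the same 8 libraries, and members on one chromosome share neighbours, so no p is given. The neighbourhood of RPL8 had a median of 1.37 and that of RPL26 one of 1.01, close to the differences of the promoters themselves. Called distal members stood further from theirs: the RPS16 peak, at 2.297, had a neighbourhood at -0.67, and the RPS9 peak, at 1.94, one at -0.69. Over the 38 distal members rho was 0.38. What underlies the neighbourhood differences was not tested.

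**Figure D5:**
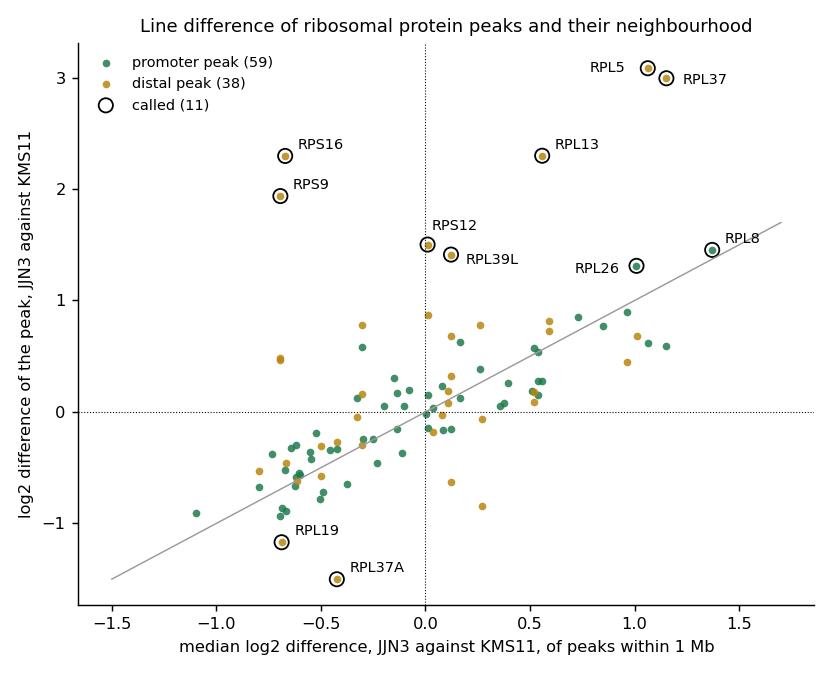
Log2 difference of each member, JJN3 against KMS11, plotted against the median log2 difference of the other peaks within 1 Mb, with promoter members in green, distal members in ochre, the 11 called members ringed and the line of equality in grey. Promoter members follow the line (Spearman's rho 0.88), and called distal members such as RPS16, RPS9 and RPL13 lie above it.

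Among genes that make or serve ribosomes, POLR1A had a called peak at an annotated start. The lists were chosen with earlier results of these data known. Of 33 promoter peaks of ribosome biogenesis genes, 1 was called under the combination and under pomalidomide, which is 3.03%, against 1.69% of all promoter peaks under the combination and 0.49% under pomalidomide. It was that of POLR1A, the largest subunit of RNA polymerase I, which transcribes ribosomal RNA. The deposited distances of POLR1A peaks run from different annotated starts, and whether this peak lies at a RefSeq start was not checked. In JJN3 this POLR1A peak (2:86038357-86038919) had 39.8 scaled CPM under the combination, 18 under GNE-781, 32.0 under pomalidomide and 18.8 under DMSO. In KMS11 it had 30.1, 7.76, 28.7 and 11.1 in that order. It rose by 1.29 ± 0.26 on the log2 scale under the combination (adjusted p = 0.0011) and by 1.104 ± 0.26 under pomalidomide (adjusted p = 0.0145), and the libraries with pomalidomide lay above all libraries without. The list's median log2 change was 0.10 under the combination, 0.13 under GNE-781 and 0.11 under pomalidomide, with 22, 21 and 21 of 33 above 0. Over all GNE-781 libraries the promoter of UBTF, a factor of the same polymerase, rose by 0.69 ± 0.19 (adjusted p = 0.0488). This is 3.03% of the list, against 0.358% of all promoter peaks. Over all pomalidomide libraries that of PES1, needed for the large subunit, rose by 0.63 ± 0.17 (adjusted p = 0.0133) beside POLR1A. Both make up 6.06% of the list, against 2.67% of all promoter peaks.

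Over all 61 peaks of the ribosome biogenesis list, distal ones included, 3 rose and 3 fell under the combination (9.84%, against 4.79% of all peaks), and 2 rose under pomalidomide (3.28%, against 1.25%). Of these 6, 3 belong to POLR1A. Beside the called promoter peak, a peak 107064 bp from another annotated start of the gene rose by 1.06 ± 0.30 (adjusted p = 0.0275). A peak in the gene, 1327 bp from the start in that promoter peak, fell by 0.89 ± 0.28 (adjusted p = 0.0468). The last had 19.9, 26.9, 22.7 and 20.3 scaled CPM in JJN3 and 10.5, 16.2, 16.1 and 28.0 in KMS11 for the combination, GNE-781, pomalidomide and DMSO, so that the combination was far below DMSO in KMS11 and close to it in JJN3.

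Of 31 promoter peaks of translation factors 0 were called under the combination, GNE-781 or pomalidomide, with a median of 0.16 under the combination and 23 above 0. Over all pomalidomide libraries 1 rose, at EEF2, the elongation factor that moves the ribosome along, and 1 fell, at EIF3B of the initiation complex. Both make up 6.45% of these promoter peaks, against 2.67% of all promoter peaks. With distal peaks, 1 of 61 was called under the combination (1.64%, against 4.79% of all peaks), a peak of the initiation factor EIF1. Of 27 promoter peaks of regulators of ribosomal protein supply, such as MYC, MTOR and LARP1, 0 were called under the single treatments or the combination. Their median was -0.002 under the combination. Over all pomalidomide libraries 1 fell (3.7%, against 2.67% of all promoter peaks), at TSC2, an inhibitor of mTOR signalling. With distal peaks, 1 of 57 was called under the combination (1.75%, against 4.79% of all peaks), in GABPB1, part of an ETS-family factor. Of 56 promoter peaks of mitochondrial ribosomal proteins, a list added afterwards, 0 were called under the combination, GNE-781 or pomalidomide, and their medians were -0.03 under the combination, 0.045 under GNE-781 and -0.01 under pomalidomide. With distal peaks, 3 of 110 were called under the combination (2.73%, against 4.79% of all peaks).

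At the 15 start peaks of genes without a member peak, all listed under other genes' symbols, edgeR called 0 in any treatment comparison. The start peaks of RPL10, RPL37A and RPS26, which have members elsewhere, are also listed under other symbols. The peak at the RPL18 start (19:48618957-48619741) had 43.6 scaled CPM under the combination, 44.9 under GNE-781, 43.0 under pomalidomide and 34.6 under DMSO in JJN3. In KMS11 it had 73.0 under the combination, 80.2 under GNE-781, 70.5 under pomalidomide and 45.3 under DMSO. Each treated library was above the DMSO library of its line, and the log2 change under the combination was 0.57 (adjusted p = 0.0822). Over all 75 peaks at RefSeq starts the median change was 0.15 under the combination, with 49 above 0, and 0.11 under GNE-781, also with 49 above 0, and 0 were called in either.

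The mean profile of the promoter members over the 8 libraries, in log2 CPM after centring each peak, ran from -0.11 in the JJN3 DMSO library to 0.10 in the KMS11 combination library. The other genes whose promoter peak lay nearest to it by Euclidean distance were IFT80 (0.105), SLC5A6 (0.105), PPM1D (0.135), CPEB3 (0.137) and IFT52 (0.143). Members themselves lay at a median distance of 0.768 from their mean profile, and all promoter peaks at 1.00. The members entered this mean, which by itself brings them nearer to it, so their smaller distance is no test of a shared profile. The nearest genes were picked for their small distance.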

How the data were processed

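The authors deposited 1 table of raw read counts per peak, a union of MACS2 peaks, for 8 ATAC-seq libraries (2 lines, 4 treatments). Per the submitters' processing notes, MACS2 2.1.1.20160309, Bowtie2 2.3.5.1 and SAMtools 1.10 were among the tools, beside cutadapt 2.5 and Trim Galore 0.6.4, and the build was GRCh38. Whether the libraries came from separate cultures is not given in the sources used here, so p-values measure the spread between these libraries, which may be technical. With 1 library per line and treatment, that spread is how far the lines differ in their response where treatment and line are fitted. Where both agents enter as additive terms, the spread also takes in any non-additive response to them. The model with a drug effect per line leaves only non-additive responses in the spread (2 residual degrees of freedom). The fit drew the spread strongly toward a value shared by all peaks (62.8 prior degrees of freedom), and the intervals rest on this too. Scaled CPM are counts scaled to a common library size, with TMM factors.

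Peaks with a mean of at least 2 CPM were tested (62234, with 294 removed) with edgeR 4.0.16 (R 4.3.3, limma 3.58.1): treatment with line as a block (3 residual degrees of freedom), or line, pomalidomide and GNE-781 as additive terms (4). P-values were adjusted by Benjamini-Hochberg over all tested peaks. Intervals are 95% and come from the fit. Alternatives were DESeq2 1.42.0, other scalings and filters, and leaving out each library. Within-line log2 ratios used a prior count of 2. Figures used matplotlib 3.10.9.

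The members and gene lists were chosen with earlier results of these data known. Named were all called members, the 3 of lowest p in each direction where fewer than 6 were called, and a set list of promoters. The fit was tested on simulated data. JJN3 DMSO had the fewest counts, a median of 36 per promoter member, and KMS11 combination the most, 173. Values of some named genes are not reported here.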

Additional observations from a re-analysis of the deposited data

How the results depend on the processing

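Counts of called members kept their value or stayed within 1.5 times it in 98 alternatives and moved in 3. In every treatment comparison the main count was 0. For all pomalidomide libraries the count was 1 instead of 0 with cyclic loess offsets, and 0 to 1 when single libraries were left out. For JJN3 against KMS11 it was 2 instead of 11 when members were taken by RefSeq start, a set that holds few distal peaks, and 11 to 13 when single libraries were left out. The median log2 change of the promoter members under the combination, 0.140, was 0.112 with relative log expression factors, 0.163 with cyclic loess and 0.107 with DESeq2, and 0.099 to 0.143 without single libraries. Under pomalidomide the leave-one-out range was 0.004 to 0.124, the highest without the KMS11 pomalidomide library, and under GNE-781 it was 0.106 to 0.163. Between the lines the median was -0.135 with cyclic loess, -0.157 by RefSeq start and -0.087 to 0.050 without single libraries. For these medians 55 alternatives differed from the main value by less than an SD, and 8 moved further. That SD is over the medians of single lines, or of single treatments for the line difference. The causes were not tested. Less the median of all promoter peaks, the members' median stayed between 0.099 and 0.162 under the combination and between 0.072 and 0.173 under GNE-781. Under pomalidomide it lay between -0.008 and 0.092, the highest without the JJN3 pomalidomide library, against 0.002 with all libraries. The line is a block in every treatment comparison, which sets each treated library against the others of its line. Depth limits the distal members most, and intervals cover the spread between libraries only.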
